A study of Homo sapiens with 6 samples.

Results

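The mRNAs examined here are those of the human proteasome, followed in the RNA that was cross-linked to eIF4B in a pair of B-cell lines. They were chosen by name: every protein-coding gene whose symbol starts with PSMA, PSMB, PSMC, PSMD, PSME, PSMF or PSMG and a number, and that was listed in either table. This gave 48 genes of the 13160 protein-coding genes with a count, 48 of them listed in DoHH-2 and 47 in GM01953. PSMC3IP has such a name but its product acts in meiotic recombination and is no subunit, so 47 of the 48 belong to the proteasome, its activators, its inhibitor or its assembly chaperones. PSMB11 and PSME3IP1 were not listed under these names. The rule used no measured value.

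The study asked where eIF4B, a cofactor of the helicase eIF4A in translation initiation, contacts RNA in diffuse large B-cell lymphoma (DLBCL). It used iCLIP, in which RNA is cross-linked to protein by UV light in living cells, the protein is immunoprecipitated, and the site where reverse transcription stops marks the cross-linked nucleotide. DoHH-2 is a DLBCL cell line with 4 labelled replicates, and GM01953 is the control B-cell line, with 2. The same number of cells was used for each, with 150 mJ/cm2 of UVC and no other treatment, followed by RNase I and an antibody to eIF4B. The lines come from unrelated cells, so the tumour state cannot be told apart from any other difference between 2 cell lines. The B-cell markers had counts in 7 of 8 genes in DoHH-2, where CD22 was listed at no position, and in 8 of 8 in GM01953, with 1829 and 4282 counts per 1000000 counts in all. Of 4 T-cell markers, TRAC alone had counts (21 in GM01953), and of the myeloid, erythroid, epithelial and fibroblast markers only EPCAM did (2 in DoHH-2).

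Each cell line has a single table, in which the replicates were pooled, so no value below has an SD and no difference between the lines could be tested. Intervals are 95% intervals for counting error only (exact Poisson for rates, exact conditional binomial for ratios, Wilson for shares), and they omit the spread between cultures and any PCR copies that remained. DoHH-2 held 2033156 cDNA counts at 1179243 positions and GM01953 held 167197 at 78474 positions, a depth ratio of 12.16. A rate is the number of counts of a gene per 1000000 counts of the table (CPM), so that 1 count is worth 0.492 CPM in DoHH-2 and 5.98 CPM in GM01953. It follows both how abundant an mRNA is and how often it was cross-linked to eIF4B, and these cannot be told apart here.

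The proteasome degrades proteins that carry ubiquitin chains. Its core particle is a barrel of stacked alpha and beta rings, the beta rings holding the proteolytic sites, and its regulatory particle has a base with a ring of ATPases that unfolds substrates and a lid that removes ubiquitin. In lymphoid cells and after interferon, the catalytic beta subunits PSMB5, PSMB6 and PSMB7 can be replaced by PSMB8, PSMB9 and PSMB10, which gives the immunoproteasome, an enzyme that makes peptides for antigen presentation. B-cell malignancies are treated with inhibitors of the PSMB5 site.

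The sequences below are those with the most counts at a single nucleotide in DoHH-2, and show which bases were read as cross-linked. Each runs 5′ to 3′ along the MANE Select mRNA, with the position of highest count as the capital in the middle of 29 nt. PSMA7 had 31 counts at chr20:62136831-62136831 on the minus strand (GRCh38), in the 3′ UTR. PSMB2 had 26 at chr1:35603362-35603362 on the minus strand, in the coding sequence (CDS), and PSMD4 had 22 at chr1:151262199-151262199 on the plus strand, also in the CDS. PSMA2 (19 counts, chr7:42932159-42932159, minus strand) and PSMB4 (16 counts, chr1:151399587-151399587, plus strand) had theirs on the last base of the 5′ UTR. For PSMA4 (18 counts), PSMA3 (16) and PSME1 (15) it lay in the 3′ UTR, and for PSME4 (17), PSMB1 (16) and PSMB3 (14) in the CDS. PSMA5 had 17 counts both at the CDS position shown and at another in the 3′ UTR. PSMB8 also reached 14 counts and is shown with the catalytic pairs.
PSMA7: tctttgcttgtaatTtttaaattcatatc
PSMB2: agctccagaaacgcTtcatcctgaatctg
PSMD4: gaatggagacttctTacccaccaggctgc
PSMA2: gctcttcgggtaaaGatggcggagcgcgg
PSMA4: gaaggctttactttTtttaactggtgcag
PSMA5: ggatccagacatcaGagggtgtgtgccta
PSME4: ttatgggagaaaatTtagcaaagaagatc
PSMA3: tccaatgtaactatTtagccctggattat
PSMB1: gctggagaagatttTgcaattgttgcttc
PSMB4: gctaccgtgactaaGatggaagcgttttt
PSME1: gcttctgttgagatTtttccctcaccttg
PSMB3: gcaatcatgtctatTatgtcctataacgg

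In 9 of these 12 windows the capital is T and in 3 it is G. Among the 45 genes with more than 20 counts on the mRNA in DoHH-2, the highest position was a T in 28 (62.2%), a G in 11 (24.4%), a C in 5 (11.1%) and an A in 1 (2.22%). The 7498 other coding genes had 48.5% T, 23.9% G, 20.2% C and 7.39% A. In GM01953 it was a T in 3 of 14 genes (21.4%), against 40.65% of 898 others. Over all counts on the 48 mRNAs in DoHH-2, T took 40.9% (95% interval 40.0 to 41.9) against 26.8% of the bases of the same mRNAs, and A took 10.49% against 27.01%. G took 28.1% (27.2 to 28.98) in DoHH-2 where the other coding genes had 23.0%, with G making up 24.1% of the bases in both sets. With each position taken once in DoHH-2, T fell to 36.3% and G stayed at 28.4%. The high share of T was not particular to the listed base. By counts, T took 41.1% at the next base downstream and 38.6% at the base before. In GM01953 G took 27.8% (24.6 to 31.3) against 26.1% in the others. With each position taken once it took 25.1% against 25.5% there.

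The proteasome mRNAs held 10869 counts at 6701 positions in DoHH-2 (5346 CPM) and 708 counts at 415 positions in GM01953 (4235 CPM). The rate was 1.26 times as high in DoHH-2 (1.17 to 1.36). This was 0.628% and 0.541% of all counts in protein-coding genes. Exons of the MANE Select transcript held 91.2% of them in DoHH-2 and 94.9% in GM01953. With only positions at an FDR below 0.05 the rates were 3385 and 2518 CPM. In DoHH-2 the median count was 174.5 among the 48 genes and 54 among all coding genes, and 44 of the 48 were above the latter. In GM01953 the medians were 10 and 6, and 32 of the 48 were above.

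A site is a position with an FDR below 0.05, and a gene with more than 20 counts at its sites was called bound. The study also asked for enrichment over total RNA, which was not applied here. Bound in this sense therefore cannot be told apart from high mRNA abundance, and its numbers are not those of the study. In DoHH-2, 42 of the 48 genes were bound, against 31.6% of all coding genes with a count in either line. In GM01953, 5 of 48 were bound, against 6.19%. These 5 were PSMA7 (58 site counts), PSMA5 (32), PSME1 (29), PSMB2 (25) and PSMB1 (21). The 6 genes not bound in DoHH-2 were PSMA8, PSMC1, PSMC3IP, PSMD5, PSMD9 and PSMD10. At 12.16 times less depth, few genes in GM01953 could reach 20 counts at sites: 16 of the 48 had more than 20 counts at all positions, and 3 were bound at an FDR below 0.01.

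The alpha ring, the outer ring that gates entry to the core, held the most counts of any group. Its 8 genes had 1632 CPM in DoHH-2 against 1232 CPM in GM01953, a ratio of 1.33 (1.15 to 1.53). PSMA7 was the highest gene of the 48 in both lines, with 835 counts (411 CPM, 383 to 440) in DoHH-2 and 79 (473 CPM, 374 to 589) in GM01953. Its ratio of 0.869 has an interval of 0.690 to 1.11, which holds 1. PSMA5 (516 counts), PSMA3 (487) and PSMA4 (434) were also among the highest in DoHH-2, and had 36, 23 and 23 counts in GM01953. PSMA2 (395 counts against 14) and PSMA1 (346 against 8) were both more than 2-fold higher in DoHH-2, at 2.32 (1.37 to 4.28) and 3.56 (1.78 to 8.30). PSMA6 had 285 and 23 counts. At the other end, PSMA8, which replaces PSMA7 in the proteasome of the testis, had 21 counts in DoHH-2, each at a separate position and none at a site, and none in GM01953. At the depth of GM01953 a count of 0 allows up to 17.9 CPM (3 counts), which is above the 10.3 CPM of DoHH-2, so a difference was not detectable. The exact Poisson interval drawn for it in the plot of rates ends at 22.1 CPM.

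**Figure D1:**
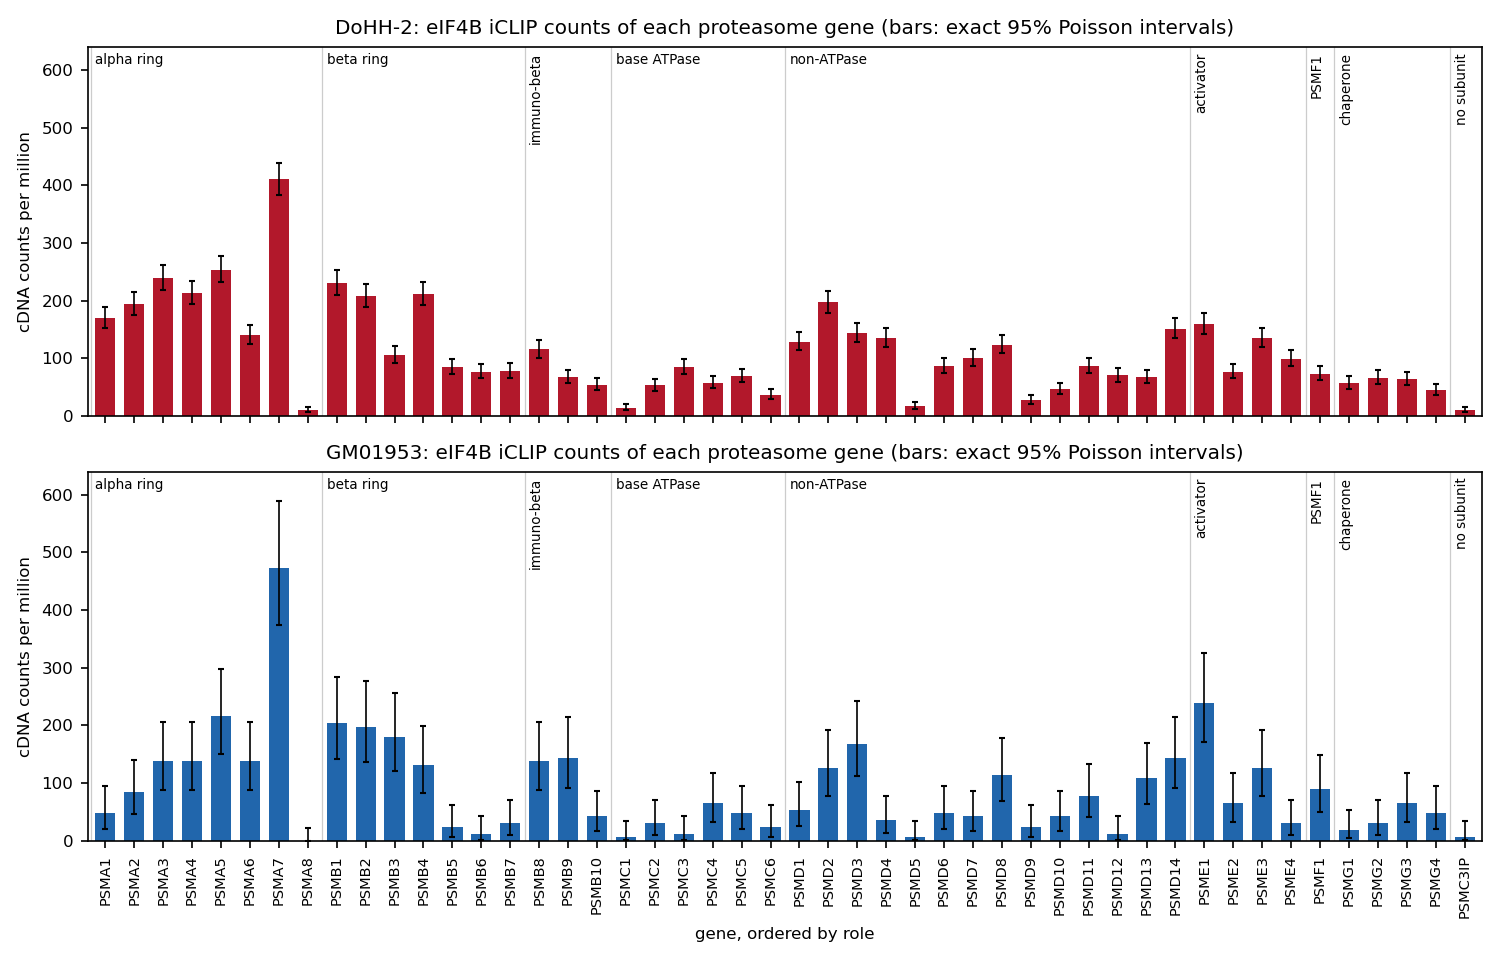
CPM (y axis) of each proteasome gene (x axis, ordered by role) in DoHH-2 (top) and GM01953 (bottom), 1 pooled table each. Bars are the rate and whiskers the exact 95% Poisson interval. PSMA7 stands highest in both lines at 411 and 473 CPM, and the catalytic genes PSMB5, PSMB6 and PSMB7 sit near the bottom in GM01953.

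The constitutive beta ring divided by role. The 4 genes without a proteolytic site, PSMB1 to PSMB4, had 757 CPM in DoHH-2 against 712 CPM in GM01953, a ratio of 1.06 (0.882 to 1.29). Within them PSMB1 (469 and 34 counts), PSMB2 (424 and 33) and PSMB4 (431 and 22) had ratios of 1.13, 1.06 and 1.61, and PSMB3 had 215 and 30 counts, a ratio of 0.589 (0.401 to 0.895). The 3 catalytic genes had 238 and 65.8 CPM, a ratio of 3.62 (2.00 to 7.30). PSMB5, the chymotrypsin-like subunit, had 171 counts in DoHH-2 against 4 in GM01953, a ratio of 3.52 (1.35 to 13.0). PSMB6, the caspase-like subunit, had 155 and 2 counts (6.37, 1.74 to 53.1), and PSMB7, the trypsin-like subunit, 158 and 5 (2.60, 1.09 to 8.11). The intervals are wide because so few counts were seen in GM01953.

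The immunoproteasome subunits PSMB8, PSMB9 and PSMB10 together had 237 CPM in DoHH-2 against 323 CPM in GM01953, a ratio of 0.734 (0.553 to 0.991). PSMB9 had 138 and 24 counts, a ratio of 0.473 (0.305 to 0.763), and was the only gene of those with at least 100 counts that was 2-fold higher in GM01953. It did not reach 2-fold at sites alone (0.834) or without its highest position (0.547). PSMB8 had 234 and 23 counts (0.837, 0.544 to 1.35) but a ratio of 2.96 at sites alone, and PSMB10 had 110 and 7 (1.29, 0.607 to 3.29). The intervals of PSMB8 and PSMB10 hold 1.

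Each immunoproteasome subunit takes the place of 1 constitutive subunit, so the counts of a pair can be set against each other within a line, free of the depth of the tables. Of the counts of the 3 pairs, the immunoproteasome genes held 482 of 966 in DoHH-2 (49.9%, 46.7 to 53.0) and 54 of 65 in GM01953 (83.1%, 72.2 to 90.3). For PSMB9 with PSMB6 the share was 47.1% (41.5 to 52.8) against 92.3% (75.9 to 97.9), and for PSMB8 with PSMB5 57.8% (52.9 to 62.5) against 85.2% (67.5 to 94.1). For PSMB10 with PSMB7 it was 41.0% (35.3 to 47.0) against 58.3% (31.9 to 80.7), where the intervals overlap. On the MANE Select mRNAs alone, where 60 of the 138 PSMB9 counts in DoHH-2 are left out, the shares were 46.3% and 80.7%. At sites alone GM01953 had 64.7%, with an interval of 41.3 to 82.7 that reaches below the share in DoHH-2. The pairs were picked for comparison with the values known, and no test between the lines was possible.

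The positions of highest count in these 6 mRNAs are shown to compare where the paired subunits were cross-linked in DoHH-2, with the capital as above. PSMB5 (7 counts, chr14:23025944-23025944, minus strand) and PSMB8 (14 counts, chr6:32840790-32840790, minus strand) had it in the 3′ UTR. PSMB6 (7 counts, chr17:4798431-4798431, plus strand) had it 11 nt past the first base of the stop codon, and PSMB9 (4 counts, at 2 positions, this one chr6:32854210-32854210, plus strand) 20 nt before the start codon. PSMB7 (13 counts, chr9:124415426-124415426, minus strand) had it on the base before the start codon, and PSMB10 (11 counts, chr16:67936035-67936035, minus strand) in the CDS.
PSMB5: ggcacattgacctcTatgtgttaccagtc
PSMB8: ctgcgtgttctctaTttgaacaagcattt
PSMB6: gcctgaatcctgggAttctagtatgcaat
PSMB9: ccccaggcggcgagGagagcggtgccttg
PSMB7: tgctttcttgggaaGatggcggctgtgtc
PSMB10: gtccaagatggagcTacacgcgttatcta

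The base of the regulatory particle had low counts. The 6 ATPases that unfold substrates had 314 CPM in DoHH-2 against 185 CPM in GM01953, a ratio of 1.69 (1.18 to 2.52). PSMC3 had the highest ratio of the 41 genes, 7.11 (1.94 to 59.2), from 173 and 2 counts. PSMC1 had 28 counts in DoHH-2, only 8 of them on its MANE Select mRNA, and 1 in GM01953. PSMC2, PSMC4, PSMC5 and PSMC6 had between 74 and 140 counts in DoHH-2, and the interval of each ratio holds 1.

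The 14 non-ATPase genes of the regulatory particle ranged from 35 counts (PSMD5, which acts as an assembly chaperone of the base) to 400 (PSMD2, a scaffold of the base) in DoHH-2. Together they had 1381 and 999 CPM, a ratio of 1.38 (1.18 to 1.63). PSMD12 (143 and 2 counts; 5.88, 1.60 to 49.0), a scaffold of the lid, and PSMD4 (275 and 6; 3.77, 1.71 to 10.4), a ubiquitin receptor, had the highest ratios. PSMD7 (204 and 7 counts) and PSMD1 (261 and 9) were 2.40 and 2.39 times as high in DoHH-2, with intervals above 1, but 1.32 and 1.45 times at sites alone. PSMD7 is the partner of the deubiquitinase PSMD14, and PSMD14 itself had 307 and 24 counts, a ratio of 1.05 (0.694 to 1.67). PSMD3 had 292 and 28 counts, a ratio of 0.858 (0.581 to 1.31).

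Activators are caps that open the core without the ATPase base. PSME1 and PSME2 form the interferon-induced cap, and PSME1 had 324 and 40 counts, the second highest of the 48 genes in GM01953, with a ratio of 0.666 (0.479 to 0.950). PSME2, its partner, had 156 and 11 counts and a ratio of 1.17 (0.634 to 2.38). PSME3, the nuclear cap, had 276 and 21 counts (1.08, 0.693 to 1.77), and PSME4, a large cap known from chromatin and the testis, 201 and 5 (3.31, 1.39 to 10.3). At sites alone the PSME4 ratio turned to 0.740. PSMF1, an inhibitor, had 149 and 15 counts, a ratio of 0.817 (0.480 to 1.496). Of the chaperones that assemble the alpha ring, PSMG1 (116 and 3 counts) and PSMG2 (135 and 5) were 3.18 and 2.22 times as high in DoHH-2, the latter with an interval of 0.928 to 6.95 that holds 1. On the MANE Select mRNA alone PSMG2 had a ratio of 1.73.

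In all, 41 of the 48 genes had at least 100 counts in both lines together, and 13 of them (31.7%) were at least 2-fold higher in DoHH-2, against 28.0% of the 4372 coding genes with as many counts. At least 2-fold higher in GM01953 was 1 of 41, against 8.14%. The median ratio was 1.29 among the 41 and 1.29 among all 4372 coding genes. The count of 2-fold higher genes in DoHH-2 and the middle of the ratios were thus near those of coding genes with as many counts. This minimum is met mostly through the deeper DoHH-2 table. With at least 1 count in each line instead, 15 of 47 genes were 2-fold higher in DoHH-2, against 22.4% of 9248 coding genes. In GM01953 it was then 1 of 47, against 22.9%. Among the 41 genes the interval was above 1 in 16 (39.0%, against 30.1% of the 4372), below 1 in 3 (PSMB9, PSMB3 and PSME1, 7.32% against 13.2%) and held 1 in 22. All 13 genes above 2-fold had 14 or fewer counts in GM01953. The lowest of them was PSMG2 at 2.22, and the next below the threshold was PSMD6 at 1.81. Without the highest position of each gene in each line, 20 of 40 genes were 2-fold higher in DoHH-2, against 44.8% of all coding genes, and none in GM01953, against 4.41%. Some of these genes share positions with another listed gene: 100% of the PSMA6 counts in DoHH-2, 98.2% of PSMA2, 98.2% of PSMD9, 63.6% of PSMA1, 36.2% of PSMB9 (with PSMB8-AS1) and 25.5% of PSMB10. Without such positions 13 of 38 genes were 2-fold higher in DoHH-2, against 28.3% of all coding genes, and 1 in GM01953, against 8.04%.

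**Figure D2:**
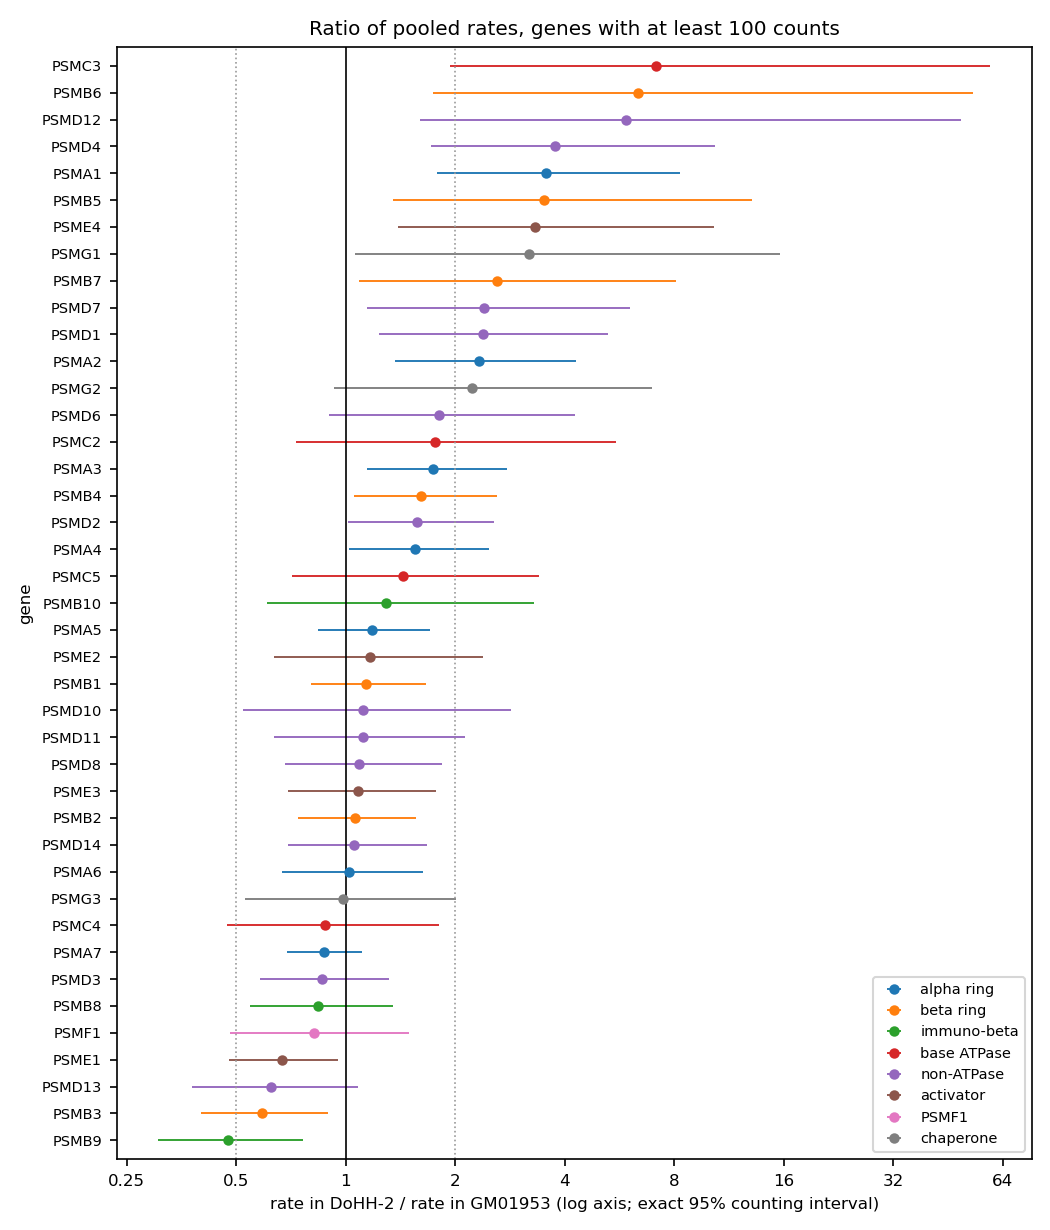
Ratio of the rate in DoHH-2 to that in GM01953 (x axis, log scale) for the 41 proteasome genes with at least 100 counts (y axis), with exact 95% counting intervals and colours by role. The solid line marks a ratio of 1 and the dotted lines 0.5 and 2. PSMC3 lies highest at 7.11 and PSMB9 lowest at 0.473.

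Other genes of the pathway were taken from a list of 25. Of these, 21 had at least 100 counts, with a median ratio of 1.17, and 5 were at least 2-fold higher in DoHH-2, where 28.0% of coding genes were. They were UCHL5 (4.47), a deubiquitinase of the regulatory particle, ECPAS (2.92), a proteasome adaptor, ADRM1 (2.67), a ubiquitin receptor, DDI2 (2.40), the protease that activates NFE2L1, and POMP (2.32), the chaperone of beta-ring assembly. AKIRIN2, which brings proteasomes into the nucleus, was the 1 gene 2-fold higher in GM01953 (8.14% of coding genes were), with 213 and 43 counts and a ratio of 0.407 (0.292 to 0.579). NFE2L1, the transcription factor of proteasome genes, had a ratio of 0.603 (0.367 to 1.05). TAP1 and TAP2, which carry the peptides of the proteasome into the endoplasmic reticulum, had 52 and 65 counts in DoHH-2 and 2 each in GM01953. The bound genes of the 25 numbered 19 in DoHH-2 and 4 in GM01953, beside 31.6% and 6.19% of all coding genes.

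Along the mRNA, counts were divided into the 5′ UTR, the start codon region (50 nt to each side of the codon), the CDS, the stop codon region (50 nt to each side) and the 3′ UTR. In DoHH-2 the 9915 counts on proteasome mRNAs fell 8.34% in the 5′ UTR, 18.6% (17.8 to 19.3) in the start codon region, 47.5% in the CDS, 10.1% in the stop codon region and 15.6% (14.9 to 16.3) in the 3′ UTR. The other 10515 coding genes, histone genes aside, had 8.34%, 9.03%, 44.2%, 5.35% and 33.1%. Proteasome mRNAs are shorter, with a median of 1494 nt against 2977 nt and a median 5′ UTR of 68 nt against 134 nt, so the codon regions are a larger part of them. Per nucleotide, relative to the mean of the whole mRNA, the start codon region had 4.30 times the counts in proteasome mRNAs and 3.82 times in the others, and the stop codon region 2.14 and 2.17 times. The 5′ UTR had 3.52 times against 2.27, and the 3′ UTR 0.363 against 0.685. With counts and lengths each summed over genes, the codon regions in DoHH-2 were thus close to those of other genes, while the density was higher in the 5′ UTR and lower in the 3′ UTR. Genes with long 3′ UTRs weigh heavily in such a sum. PSMF1, for example, has a 3′ UTR of 7166 nt and 32 of the 1545 counts in that region. In the 5′ UTR, PSMD14 and PSMA4 gave 139 and 130 of the 827 counts. Gene by gene the 5′ UTR did not stand higher in share. Its median share was 1.60% in the 45 proteasome genes with more than 20 counts on the mRNA, against 3.57% in 7498 others. Counts lay there in 25 of the 45 and in 5003 of the others. With codon regions of 25 nt the start codon share was 10.54% and the stop codon share 4.47%.

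In GM01953 the 672 counts on proteasome mRNAs lay 7.89% in the 5′ UTR, 25.1% (22.0 to 28.6) in the start codon region, 45.7% in the CDS, 8.78% in the stop codon region and 12.5% in the 3′ UTR. The start codon share was above that in DoHH-2 beyond the counting intervals. This depended on the width of the region. With codon regions of 25 nt the share was 10.1% in GM01953 and 10.54% in DoHH-2, so it was no longer higher in GM01953. With the wider regions, to which the other values here belong, the other coding genes also had a higher share in GM01953, at 12.4%. In density the start codon region had 5.86 times the mean of the mRNA in proteasome genes and 5.32 times in the others. The 5′ UTR did not stand higher in GM01953 as it did in DoHH-2: its share was 7.89% against 13.7% in the others, and its density 3.34 against 3.75.

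**Figure D3:**
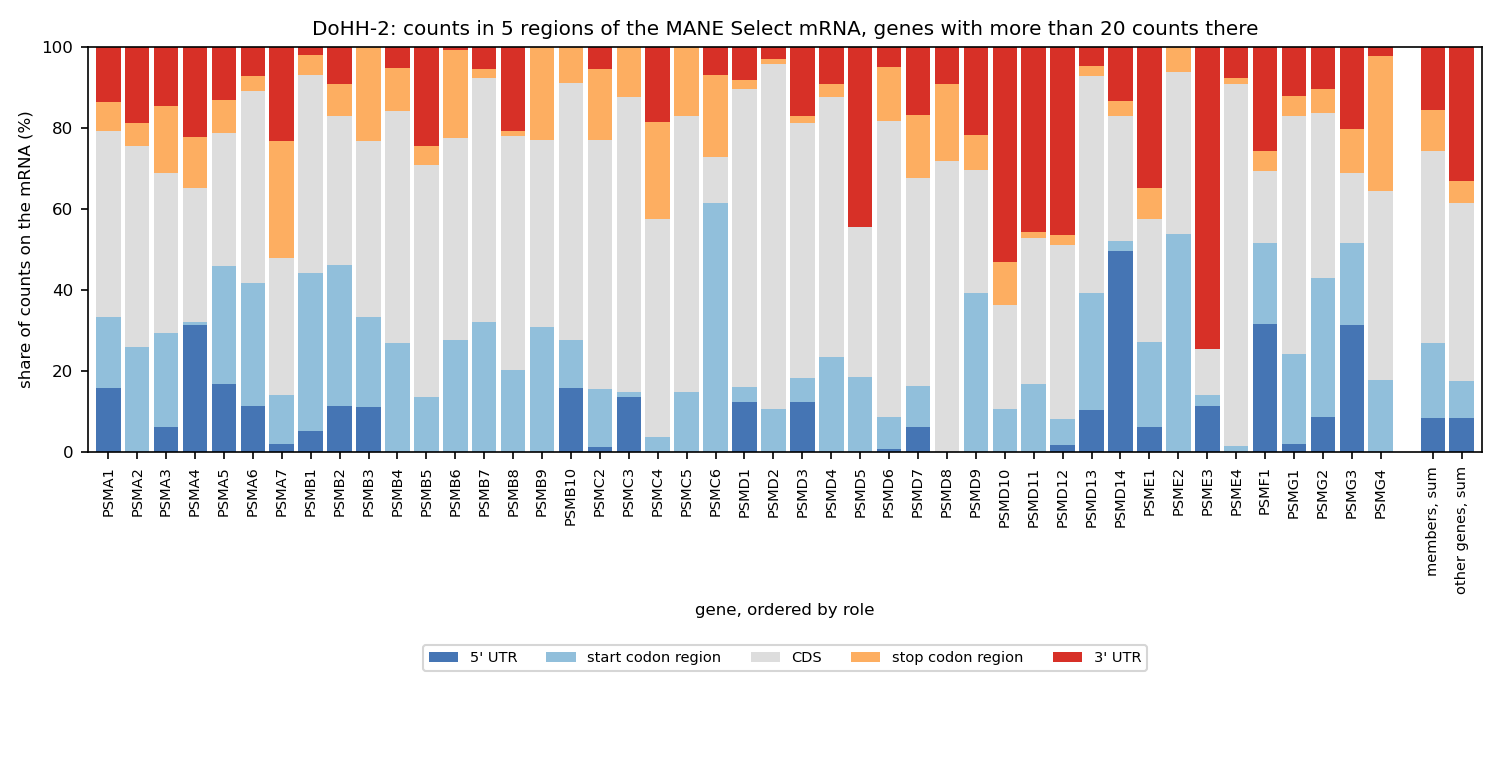
Share of the counts on the MANE Select mRNA (y axis, percent) that fell in each of 5 regions in DoHH-2, for the 45 proteasome genes with more than 20 counts there (x axis, ordered by role), with the sum of the 48 genes and of the other coding genes at the right. The 3′ UTR takes 74.6% of PSME3 and the CDS 89.6% of PSME4, while the sums are 15.6% and 47.5%.

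Single genes differed widely, and the highest shares are given among genes with more than 100 counts on the mRNA. In the 5′ UTR the highest shares in DoHH-2 were in PSMD14 (49.6% of 280 counts), PSMF1 (31.5%) and PSMA4 (31.4%). PSMD14 was also cross-linked there in GM01953, with 63.6% of its 22 counts. In the start codon region PSME2 had 53.8% of 132 counts, PSMB1 39.0% and PSMB2 34.96%. PSMD8, a lid subunit, had 0 of 242 counts in its start codon region. In the CDS PSME4 had 89.6% and PSMD2 85.4%, with PSMD1 at 73.6%. In the stop codon region PSMA7 had 28.9% of 809 counts, PSMC4 24.1% and PSMB3 23.2%. In the 3′ UTR PSME3 had 74.6% of 264 counts, PSMD12 46.4% and PSMD11 45.8%. PSMB2 and PSMA5 also have long 3′ UTRs, of 3726 nt and 2971 nt, and had 9.05% and 13.0% of their counts there. Below 100 counts there were shares as high, such as 61.4% of 44 counts of PSMC6 in its start codon region and 53.2% of 94 counts of PSMD10 in its 3′ UTR.

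A region was called dominant when it held at least 50% of the summed densities of the 5 regions, in genes with more than 20 counts on the mRNA. Of 45 such genes in DoHH-2, 13 were dominated by the start codon region, against 18.4% of all non-histone coding genes. The 5′ UTR was dominant in 6 (PSMA1, PSMA4, PSMB10, PSMD13, PSMD14 and PSMG2), against 11.8%. The stop codon region was dominant in 2 (PSMC4 and PSMD8), against 3.87%, and neither the CDS (1.94%) nor the 3′ UTR (3.23%) in any. The other 24 had no dominant region. Among those led by the start codon region were PSME2 (84.2% of the summed density), PSMD11 (80.9%), PSMB7 (73.9%) and PSMA2 (69.97%). A 5′ UTR region under 10 nt was given no density, which leaves more of the sum to the start codon region. This held in 12 of the 13 genes. Among genes without a 5′ UTR density the start codon region was dominant in 12 of 17 proteasome genes (70.6%) and 43.9% of 1714 others, and among those with one in 1 of 28 (3.57%) and 10.7% of 5784. In GM01953, 14 genes could be assessed: 5 were led by the start codon region (against 23.9%), 3 by the 5′ UTR (24.9%), 1 by the CDS (8.33%) and 1 by the 3′ UTR (5.26%), with none by the stop codon region (7.24%). The split by 5′ UTR density ran the other way there. With such a density the start codon region led in 4 of 11 genes (36.4%) and 19.8% of 748 others. Without it, this was 1 of 3 and 43.3% of 150. At a threshold of 70% the DoHH-2 numbers were 6 for the start codon region and 1 for the 5′ UTR.

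**Figure D4:**
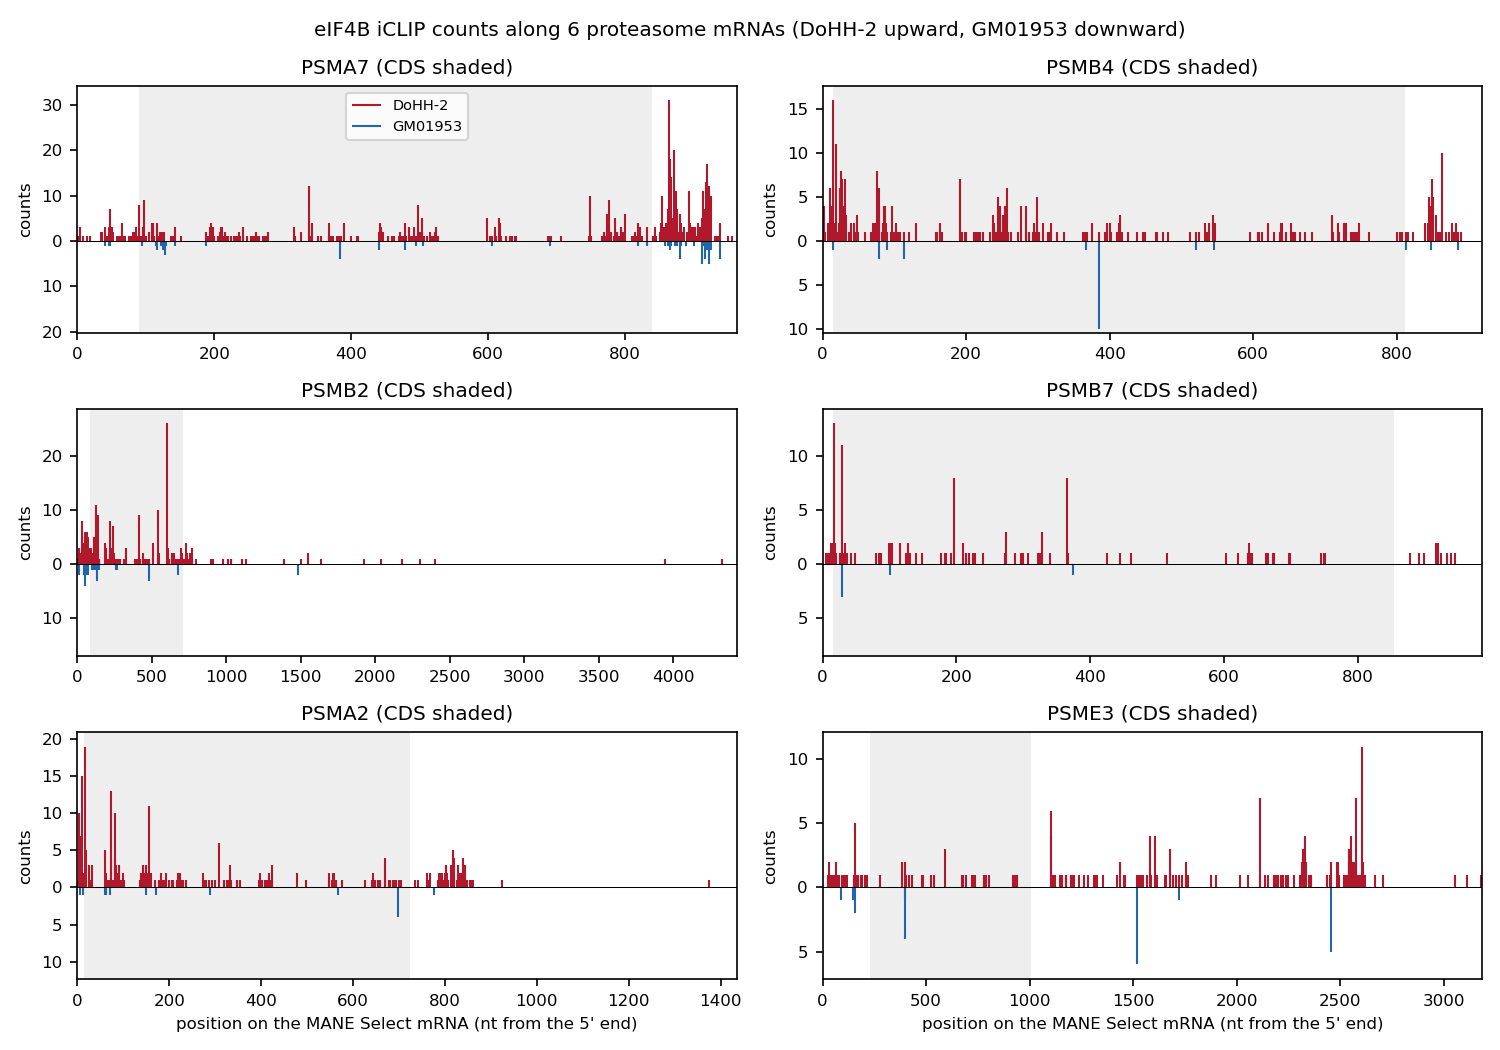
Counts at each position (y axis, DoHH-2 upward in red, GM01953 downward in blue) along the mRNA (x axis, nt from its 5′ end) of 6 proteasome genes, with the CDS shaded. PSMA7 peaks just past its stop codon (31 counts), PSMA2, PSMB4 and PSMB7 at the start of the CDS (19, 16 and 13 counts), PSMB2 inside the CDS (26) and PSME3 along its 3′ UTR (11).

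The highest position lay in the 5′ UTR in 15 of the 45 genes in DoHH-2 (33.3%), against 20.6% of 7498 other coding genes, in the CDS in 17 (37.8% against 51.3%) and in the 3′ UTR in 13 (28.9% against 28.2%). It lay within 100 nt of the annotated 5′ end in 16 (35.6% against 16.9%). In the 14 genes that could be assessed in GM01953 it lay in the 5′ UTR in 3 (21.4%, against 23.6% of 898 others) and within 100 nt of the 5′ end in 2 (14.3% against 16.6%). Proteasome mRNAs and their 5′ UTRs are shorter, with medians of 1494 and 68 nt against 2977 and 134 nt. The first 100 nt are thus a larger part of them, and the role of length in these shares was not tested. In DoHH-2 the highest position took a median of 5.13% of the counts of its mRNA against 6.33% in the other genes. In GM01953 it took a median of 17.8% against 16.8%. Of the 391 positions with a count on these mRNAs in GM01953, 209 (53.5%) were also listed in DoHH-2, against 34.3% in the other genes, and 335 (85.7%) lay within 5 nt of a DoHH-2 position. The median count in DoHH-2 is also higher in the proteasome genes (174.5 against 54), and its part in this overlap was not tested. The position of highest count was the same in both lines in 1 of 47 genes, PSMD6 (8 and 4 counts), and lay in the same part of the mRNA in 18. Several highest positions in GM01953 held 1 count, as in PSMB6 and PSMD9, where 2 and 4 positions tied. For these numbers and the 5 nt distance no share over other coding genes was computed, so they are not read as a trait of proteasome genes.

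In 4 of the 45 genes (8.89%) the highest position in DoHH-2 was the base just before the start codon, position -1, against 39 of 7498 other coding genes (0.520%). These were PSMA2 (19 counts), PSMB4 (16), PSMB7 (13) and PSMD11 (5). This pattern was noticed in the data and was not looked for in advance. Over all proteasome mRNAs, 92 of 9915 counts were at position -1 (0.928%, 0.757 to 1.14), in 19 genes, against 2194 of 1065785 (0.206%, 0.197 to 0.215) in the others. In both sets this base was higher than its neighbours. In proteasome mRNAs base -2 had 17 counts and the A of the start codon 12. In GM01953 the share was 1.04% (7 of 672 counts, 0.506 to 2.13), of which 5 counts were of PSMB1, and 0.317% in the others. Without PSMB1 it was 0.313% in GM01953. With each position taken once it was 0.323% in DoHH-2.

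The start codons of these mRNAs are shown because several share the same letters. ATG is in capitals, so the base in lower case before it is position -1, and the runs are 27 nt long. PSMB6 and PSMC5 are added since they carry the same word.
PSMA2 start: cttcgggtaaagATGgcggagcgcggg
PSMB7 start: tttcttgggaagATGgcggctgtgtcg
PSMD11 start: gagagcggtaagATGgcggcggcggcg
PSMB6 start: cggaggagaaagATGgcggctacctta
PSMC5 start: tgaagagagaagATGgcgcttgacgga
PSMB4 start: accgtgactaagATGgaagcgtttttg

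The word AANATGGCG, read on the coding strand with its ATG on the start codon, resembles an element known from mRNAs with very short 5′ UTRs. It is in 5 of the 48 proteasome mRNAs (10.4%), those shown except PSMB4, and in 497 of 18921 other coding mRNAs (2.63%). The word was read from the genes whose highest position is -1, so it restates that pattern and supports nothing independently: PSMA2, PSMB7 and PSMD11 gave 37 of the 43 counts at -1 in proteasome mRNAs with the word. Those 43 were among 963 counts (4.46%), beside 49 of 8952 (0.547%) in mRNAs without it. In the other genes the counts were 310 of 48744 (0.636%) with the word and 0.185% without. In GM01953 0 of 42 counts lay at -1 in proteasome mRNAs with the word and 7 of 630 (1.11%) in those without. PSMB6 had 6 counts there and PSMC5 none of 129. PSMB4 has 16 counts at -1 without the word. The annotated 5′ UTRs are short, at 16 nt in PSMA2, 17 in PSMB7, 14 in PSMD11, 31 in PSMB6 and 15 in PSMB4, but 60 nt in PSMC5. The position therefore lies near the annotated 5′ end as well, and these features cannot be told apart in single genes. Among other coding genes with a 5′ UTR of at most 35 nt, 0.810% of counts in DoHH-2 lay at -1 with the word and 0.405% without. Proteasome mRNAs of that length had 5.16% in 4 genes with it and 1.79% in 8 without. In GM01953 these had 0 of 34 and 1 of 87 counts there. Without the 4 genes whose highest position is -1, which gave 53 of the 92 counts there, the share was 0.442% of 8819 counts.

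**Figure D5:**
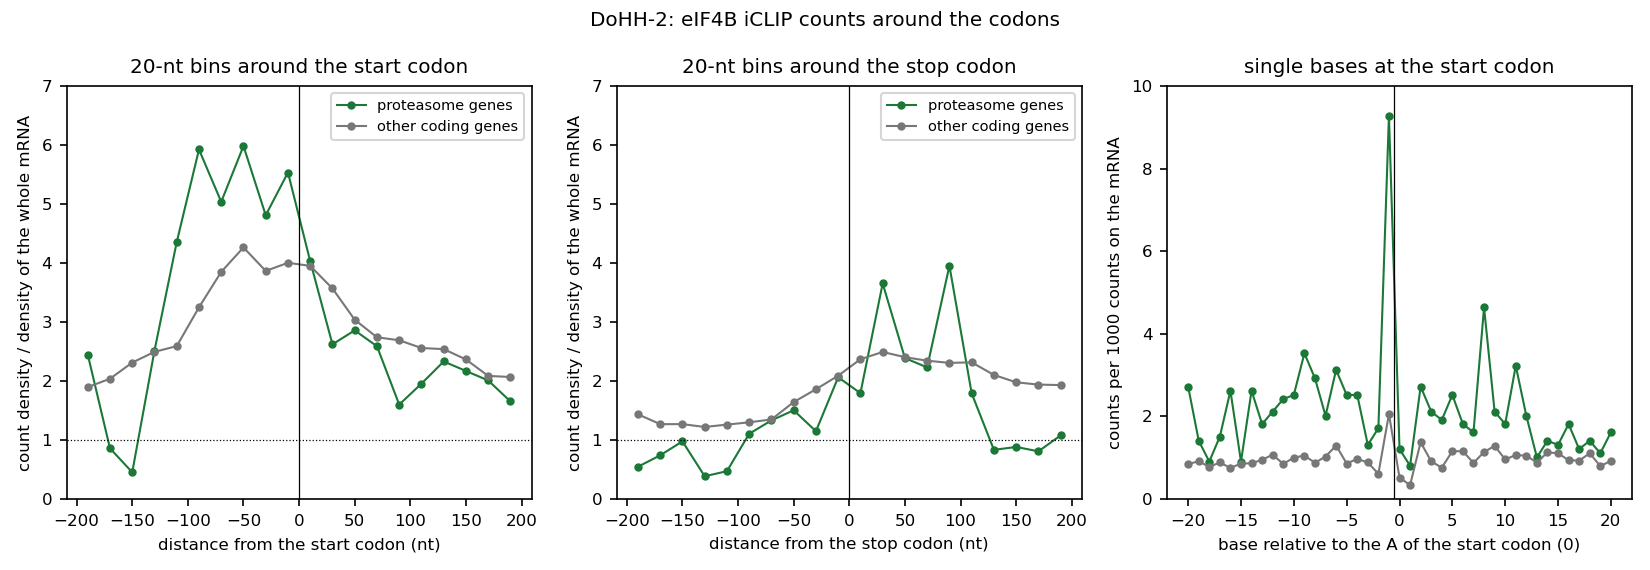
Left and middle, density of counts in DoHH-2 relative to the mean of the mRNA (y axis) in 20-nt bins around the start and stop codons (x axis, nt) for proteasome genes (green) and other coding genes (grey). Right, counts per 1000 counts on the mRNA (y axis) at single bases around the A of the start codon (x axis, 0), where base -1 reaches 9.28 in proteasome genes and 2.06 in the others.

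Around the stop codon the proteasome genes in DoHH-2 had 3.65 times the mean density in the bin from 20 to 40 nt past the first base of the codon and 3.95 times from 80 to 100 nt, against 2.49 and 2.31 in the other coding genes. PSMA7 gave 147 of the 340 counts in the first of these bins and 105 of the 322 in the other. Upstream of the start codon the density was 5.53 in the last 20 nt of the 5′ UTR against 4.00 in the others, and it was 4.03 against 3.95 in the first 20 nt of the CDS. In GM01953 the last 20 nt of the 5′ UTR had 4.58 against 5.19 in the others. The bins from -80 to -60, -60 to -40 and -40 to -20 nt were higher there, at 7.06, 11.6 and 6.31 against 5.68, 6.54 and 5.02. Past the stop codon the bins from 20 to 40 and 80 to 100 nt had 3.18 and 6.02 in GM01953, against 2.57 and 1.88. Each of these 5 bins held only 20 to 47 counts in proteasome genes.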

How the data were processed

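iCLIP of eIF4B in DoHH-2 (4 labelled replicates) and GM01953 (2) was analysed from 1 deposited table per cell line. The authors removed PCR duplicates with dedupe (BBMap), demultiplexed with Je, mapped to GRCh38 with HiSat2 and pooled the replicates before iCount gave the cDNA count at each position, a raw count that was deposited without normalization. The deposited false discovery rate (FDR) of each position is a q-value that the authors obtained with iCount, from permutations within the gene. Tool versions and annotation release are not given in the sources used here. A second deposited score, which sums counts over neighbouring positions, was not used. Total RNA levels were not analysed here.

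Positions, which count from 0 in the files, were placed on MANE Select transcripts of GENCODE release 44 and are printed from 1. A position listed for several genes was counted for each of them, and once in the total of the table. Rates are counts per 1000000 counts of the table (CPM). Regions shorter than 10 nt had no density. The 95 histone genes were left out of the comparison genes for regions and bases. Of the names in the tables, 67 fit the name pattern and 48 were protein coding in GENCODE, while 13 pseudogenes (28 and 0 counts) and 6 antisense or other transcripts (258 and 30 counts) were set aside. Genes are named with values if they were among the 10 highest in either line, in a catalytic pair, an activator, 2-fold apart with at least 100 counts, or among the 3 highest shares in a region, which were ranked over genes with more than 100 counts on the mRNA. Others, among them those for position -1, were picked once their values were known. The genes, lists and rules were chosen with earlier results of these data known. The steps were tested on simulated counts. Python 3.11.15, numpy 2.4.6, scipy 1.17.1, pandas 2.3.3 and matplotlib 3.10.9 were used.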

Additional observations from a re-analysis of the deposited data

How the results depend on the processing

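No paired analysis was possible because the replicates of each line were pooled in the deposited tables, and for the same reason no replicate could be left out. The depth of GM01953 limits most ratios, since 32 of the 48 genes had fewer than 20 counts there.

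The summed rate of the proteasome genes was 5346 CPM in DoHH-2 and 4235 CPM in GM01953. It was 7730 and 6247 when counts of non-histone coding genes were the total, 3385 and 2518 with sites (FDR below 0.05) alone, and 4877 in DoHH-2 on the MANE Select mRNA. Without the highest position, 20 genes were 2-fold higher in DoHH-2 and 0 in GM01953. With sites alone 0 were 2-fold higher in GM01953. Bound genes in GM01953 numbered 3 at an FDR below 0.01 and 16 at all positions.

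Shares of the 5′ UTR, start codon region, CDS, stop codon region and 3′ UTR in DoHH-2 were 13.1%, 10.54%, 52.2%, 4.47% and 19.6% with codon regions of 25 nt. In GM01953 they were then 16.5%, 10.1%, 53.1%, 3.57% and 16.7%. On the longest coding transcript the 5′ UTR had 8.98% in DoHH-2, the stop codon region 8.94% and the 3′ UTR 17.4%, and in GM01953 the stop codon region had 6.66% and the 3′ UTR 15.6%. With sites alone the DoHH-2 shares were 10.7% in the 5′ UTR, 23.7% in the start codon region, 40.5% in the CDS and 14.6% in the 3′ UTR. With each position taken once they were 7.36% in the 5′ UTR, 14.8% and 9.12% in the start and stop codon regions and 53.6% in the CDS.

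Genes with a dominant region in DoHH-2 numbered 1 for the 5′ UTR, 6 for the start codon, 0 for the stop codon and 38 for none at a threshold of 70%. With sites alone they numbered 1 for the CDS, 5 for the stop codon and 14 for none, and with codon regions of 25 nt 1 for the 3′ UTR. In GM01953 they numbered 1 for the 5′ UTR, 0 for the 3′ UTR and 8 for none at 70%. With sites alone they numbered 0 for the 5′ UTR, 3 for the start codon, 0 for the CDS and 1 for none, and with 25 nt 1 each for the start and stop codons.

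At cross-linked positions of DoHH-2, taking each position once gave 12.9% A, 22.4% C and 36.3% T. The next base downstream was A in 31.1%, C in 16.1%, G in 11.7% and T in 41.1% in DoHH-2. In GM01953 it was A in 36.3%, C in 17.4%, G in 6.99% and T in 39.3%.

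Other settings were added after seeing the data. The immunoproteasome share in DoHH-2 was 46.3% on MANE Select mRNAs and 45.7% without positions listed under another gene, and in GM01953 64.7% with sites alone. The share at position -1 was 0.323% in DoHH-2 with each position taken once, 0.442% without the 4 genes whose highest position it is, and 0.313% in GM01953 without PSMB1. Of the ratios of 19 named genes, that of PSME4 turned from 3.31 to 0.740 with sites alone. PSMB8 also crossed 1, from 0.837 to 2.96, where the interval of its first value held 1, and PSMA7 went from 0.869 to 1.002. PSMB9 (0.834), PSMB8 and PSMA2 (6.95) moved beyond their intervals with sites alone, and PSMB5 (13.5) without its highest position. In GM01953 that position held 3 of the 4 counts of PSMB5. The cause of the other changes was not tested.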

Other observations

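Other transcripts with proteasome gene names were rare among the counts. The 13 pseudogenes held 28 counts in DoHH-2 and none in GM01953, and 6 antisense or other transcripts held 258 and 30. Among the pathway genes outside the rule, UBB (618 and 46 counts) and RPS27A (279 and 27), which encode ubiquitin, the mark of proteasome substrates, had ratios of 1.11 and 0.850, each with an interval that holds 1. UBA1, the enzyme that activates ubiquitin, had 1011 and 51 counts and a ratio of 1.63 (1.23 to 2.21). VCP, the segregase that hands unfolded proteins to the proteasome, had 565 and 45 counts and a ratio of 1.03 (0.762 to 1.43). ZFAND5, a proteasome activator, had 194 and 28 counts and a ratio of 0.570 (0.382 to 0.880).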
